A study of Arabidopsis thaliana with 18 samples.

Results

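The genes described here were highly represented in RNA of wild-type late microspores and close to absent from RNA of both kinds of wild-type pollen nuclei. They were chosen by FPKM, a count of fragments per kilobase of transcript, scaled to the mapped fragments of each library. A locus had to have a mean below 1 FPKM over 3 libraries in WT VC, the vegetative cell nuclei of wild-type pollen, and likewise in WT SC, the sperm cell nuclei. Of the 20582 nuclear AGI loci present in both gene tables, 7414 met this ceiling. The 200 of them with the highest mean in WT LMS, wild-type late microspores, are the members. The WT values in these 3 groups therefore chose the members, and are given only as a description. All 200 are annotated as protein coding.

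All libraries were of Arabidopsis thaliana, accession Col-0, and formed 6 groups with 3 in each. V-Mt VC and V-Mt SC were nuclei sorted from mature pollen of the line labelled V-Mt, which carries pLat52:REF6-GFP with an RFP-tagged HTR10 under its own promoter. The labels number that histone upwards from HTR10 to HTR15 over the V-Mt pollen libraries. WT VC and WT SC came from a line with pACTIN11:H2B-GFP and pHTR10:HTR10-RFP, so WT here also carries transgenes, and the GFP fusion used for sorting differed between V-Mt and WT. V-Mt LMS were whole late microspores of the V-Mt line, and WT LMS those of a line with pHTR10:HTR10-RFP alone. The labels name no separate plants for the replicates, so a p-value measures only how these libraries varied, which may be technical variation.

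A microspore is the single cell that follows meiosis. Its asymmetric division gives a vegetative cell, which later grows the pollen tube, and a small generative cell, which divides into the sperm cells. While microspores mature they are bathed by the tapetum, the nurse layer of the anther, which secretes lipids, lipid-transfer proteins and wall precursors onto their surface. REF6 is a demethylase that removes methyl groups from lysine 27 of histone H3, a mark of repressed genes, and Lat52 is a tomato promoter known for activity in the vegetative cell.

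REF6 itself stood at 1302.68, 2247.80 and 3000.86 FPKM in the V-Mt VC libraries and at 0.42 to 1.1 FPKM in WT VC. In V-Mt SC it read 28.87, 58.40 and 436.38 FPKM, so replicate 3 was far above the other 2. In V-Mt LMS it read 506.28 to 1175.37 FPKM against 77.73 to 124.86 FPKM in WT LMS. These values are of the REF6 locus and do not separate reads of the transgene from endogenous ones. Sperm marker genes summed to 21929 to 35781 FPKM in WT SC and to 293 to 483 FPKM in WT VC, as the labels have it. The same list separated the V-Mt groups, with 33601.5 to 35188 FPKM in V-Mt SC and 260 to 302 FPKM in V-Mt VC. Vegetative markers summed to 4145 to 5879 FPKM in WT VC and to 829 to 918 FPKM in V-Mt VC. The latter lies within the 519 to 1368 FPKM of V-Mt SC, so this list did not separate the V-Mt groups. VGD1 held most of the V-Mt VC sum, with a mean of 744 FPKM there and 1435 FPKM in WT VC. Every listed vegetative marker had a lower mean in V-Mt VC than in WT VC, such as LRX8 at 26.7 against 1125 FPKM. Only VGD1 and ANX1 had higher means in V-Mt VC than in V-Mt SC. Depth, as estimated from the spacing of the lowest FPKM values, lay between 9500000 and 24700000 fragments in pollen libraries and between 2000000 and 3300000 in microspore libraries. Polyadenylated RNA of nuclei and total RNA of whole microspores were deposited in separate tables. A difference of level between microspores and nuclei can therefore come from stage, from compartment or from processing, and these cannot be told apart.

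Upstream sequences are shown for 7 members whose states and functions recur below. They are the last 140 bases before the annotated transcript start, from the RefSeq TAIR10.1 genome and annotation, 5′ to 3′ on the strand of the gene. Capitals mark 2 motifs known from promoters of plant ribosomal protein genes, the site II element (TGGGCC or TGGGCT) and the telo-box (AAACCCTA), each on either strand. The first 5 belong to members that were at 1 FPKM or more in V-Mt VC and carry out ribosome or RNA functions. They are AT2G37600 (ribosomal protein L36e family, chr2:15775375-15775514, minus strand), AT5G27120 (NOP56-like, chr5:9540721-9540860, plus strand), AT4G25740 (a Plectin/S10 domain protein, chr4:13108828-13108967, minus strand), AT3G07590 (small nuclear ribonucleoprotein family, chr3:2422911-2423050, plus strand) and PSRP4 (a plastid ribosomal protein, chr2:15980708-15980847, plus strand). The last 2 were below 1 FPKM in V-Mt VC: AT5G09770 (ribosomal protein L17 family, chr5:3036597-3036736, minus strand) and LTP12 (a lipid-transfer protein, chr3:19136676-19136815, minus strand).
AT2G37600: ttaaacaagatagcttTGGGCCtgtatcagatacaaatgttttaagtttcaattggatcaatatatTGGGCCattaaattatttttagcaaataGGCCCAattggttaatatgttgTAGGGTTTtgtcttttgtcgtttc
AT5G27120: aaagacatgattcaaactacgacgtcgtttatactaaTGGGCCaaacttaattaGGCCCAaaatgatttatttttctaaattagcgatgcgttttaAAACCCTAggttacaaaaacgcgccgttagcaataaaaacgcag
AT4G25740: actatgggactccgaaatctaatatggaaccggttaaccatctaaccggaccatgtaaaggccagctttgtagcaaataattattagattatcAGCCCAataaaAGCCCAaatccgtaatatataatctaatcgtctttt
AT3G07590: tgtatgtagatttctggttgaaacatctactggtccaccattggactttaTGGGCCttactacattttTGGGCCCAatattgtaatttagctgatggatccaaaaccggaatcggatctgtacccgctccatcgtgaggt
PSRP4: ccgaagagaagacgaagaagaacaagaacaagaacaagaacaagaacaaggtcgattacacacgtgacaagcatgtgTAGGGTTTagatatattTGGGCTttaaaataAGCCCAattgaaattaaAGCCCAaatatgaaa
AT5G09770: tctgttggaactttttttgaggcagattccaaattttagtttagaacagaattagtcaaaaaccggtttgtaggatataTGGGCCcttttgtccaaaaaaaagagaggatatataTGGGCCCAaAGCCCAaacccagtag
LTP12: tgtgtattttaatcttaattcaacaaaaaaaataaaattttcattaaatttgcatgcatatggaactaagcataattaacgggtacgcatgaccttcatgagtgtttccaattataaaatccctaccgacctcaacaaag

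Site II letters were present in the 250 bases before the start of 17 of the 23 ribosomal and RNA processing members (73.9%), against 26.5% of all 200 members and 22.6% of all loci with an annotated start. The telo-box was in 4 of those 23 (17.4%), against 5% of members and 4.61% of all loci. The printed windows show the letters in several copies near the start, and AT5G09770, which stayed below 1 FPKM in V-Mt VC, carried them too. These windows are examples and not typical of every member. AT5G08180, of the ribosomal class and above 1 FPKM in V-Mt VC, had neither motif in its 250 bases. AT1G66850, of the lipid-transfer family and below 1 FPKM in V-Mt VC, had site II. No match in the LTP12 window says only that these letters are not in it. The 2 motifs share no overlapping stretch, while TGGGCCCA, as in AT3G07590, holds site II on both strands. The letters known as the binding sequence of REF6 (CTCTGTTT, CTCTGTTC, CTCTGCTT or CTCTGCTC) lay in the same window of 3.50% of members and 5.58% of all loci, and the G-box CACGTG in 10.0% of members and 7.32% of all loci. The G-box was in 5 of the 24 photosynthesis and plastid members (20.8%).

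**Figure D1:**
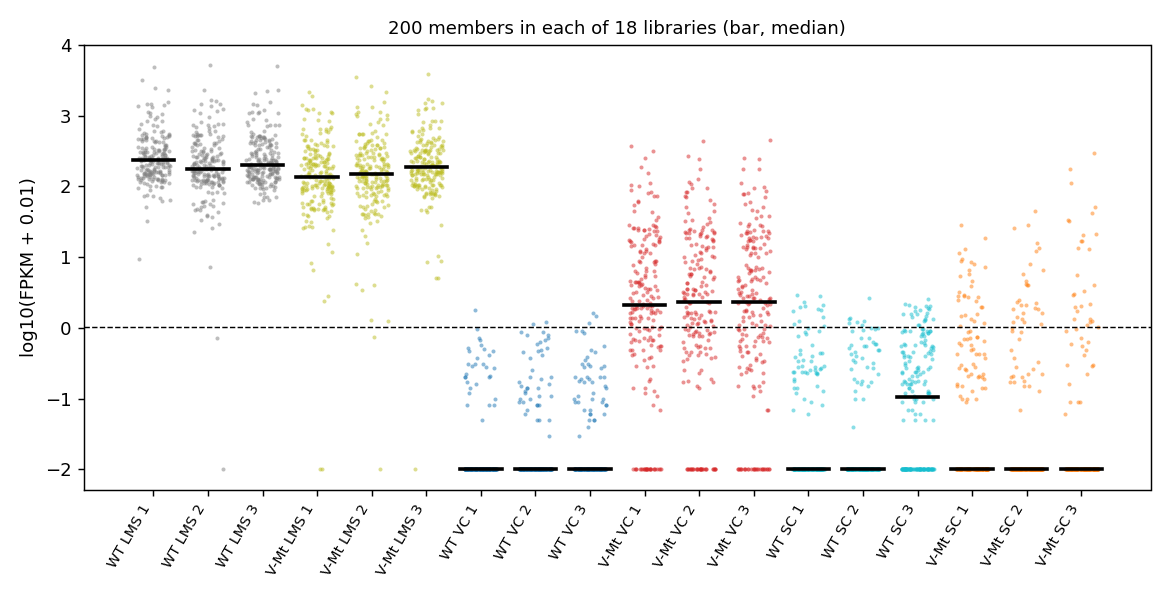
Each point is 1 of the 200 members in 1 of 18 libraries, on a log10(FPKM + 0.01) axis. Bars are medians, and the dashed line is 1 FPKM. The members' means in WT VC and WT SC are below the line by choice, although single WT libraries have points above it, the V-Mt VC libraries straddle it, and most points of V-Mt SC lie at the bottom.

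Members ranged in WT LMS from 115.07 FPKM to 5010.85 FPKM, with a median of 196 FPKM. The last member, AT1G71280, had 115.07 FPKM and the first locus outside, AT1G06260, had 114.13 FPKM. At the ceiling, GAPA was inside with 0.910 FPKM in WT VC and AT1G33430 outside with 1.04 FPKM. LHCA3 was inside with 0.987 FPKM in WT SC and DRT112 outside with 1.01 FPKM. Of the members, 46 were listed at 0 in all 6 WT pollen libraries. Members were a minority at their level, since 1507 loci reached the WT LMS mean of the last member and 13.3% of these were members.

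The most abundant microspore transcript among the members was AT1G66850, of the lipid-transfer protein family, at 4885.55, 5195.90 and 4951.10 FPKM in WT LMS. LTP12, another lipid-transfer protein, read 2259.57, 2312.71 and 2276.09 FPKM. LHB1B2, a light-harvesting chlorophyll-binding protein of photosystem II, read 1551.06, 1669.48 and 2071.83 FPKM. These 3 genes varied little between libraries. LCR69, a small cysteine-rich protein of the defensin-like kind, varied more, with 3158.56, 758.20 and 2233.04 FPKM. The other 6 of the highest 10 were AT1G68875 and AT2G07708, which have no described function, SBT5.4, a subtilisin-like protease, the cold-responsive gene KIN2, the sugar transporter gene SWEET9 and AT1G23570, a DUF220 protein. SWEET9 read 2458.85, 0.71 and 1124.85 FPKM in WT LMS, so its mean rests on 2 libraries. POLGAMMA2, an organelle DNA polymerase picked after its values were seen, was a member through 1 library, with 9.32, 7.30 and 497.54 FPKM. In all 3 WT LMS libraries 144 members reached 100 FPKM.

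In V-Mt LMS all 200 members were at 1 FPKM or more, 196 of them in each of 3 libraries, where 85.3% of all loci reached that mean. Their means were below those of WT LMS in 154 members, and the median difference was −0.47 on the log2(FPKM + 1) scale against −0.15 over all 19024 loci tested. Since high WT LMS values chose the members, lower values in the other microspore group carry no test here. None was called by limma (Benjamini-Hochberg adjusted p under 0.05), as 0.0% of all loci were, and at an unadjusted p under 0.05 there were 4 higher and 26 lower members, where 5.85% of all loci passed either way. AT4G36500, with no described function, had the lowest V-Mt LMS mean, at 2.78, 4.13 and 5.09 FPKM against 73.00, 142.52 and 134.51 FPKM in WT LMS. Its groups did not overlap, and its adjusted p by limma was 0.289.

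In V-Mt VC, 133 of the 200 members (66.5%) stood at a mean of 1 FPKM or more and 67 stayed below it. The background was 72.3% over all 20582 loci and 46.6% over the 7214 other loci that met the WT ceiling. That share was not particular to the members. The next 200 loci in order of WT LMS reached 67%, as did the 600 after those, and the share then fell in steps to 36.4% among the last 3414. Of the 1307 loci with as high a WT LMS mean that were no members, 96.1% were at 1 FPKM or more. Among members, 58 (29.0%) reached 10 FPKM in V-Mt VC and 7 reached 100 FPKM, where 39.7% of all loci and 11.8% of the other loci under the ceiling reached 10 FPKM.

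The 3 V-Mt VC libraries gave 131, 128 and 125 members at 1 FPKM or more, and 112 members were there in all 3. The state of members near the line is loose: 26 lay between 1 and 2 FPKM, and 13 of the 67 silent members had at least 1 library at 1 FPKM or more. DWF1 was nearest above the line at 1.01 FPKM and AT1G55210 nearest below at 0.947 FPKM. At the estimated depth, 1 fragment on a gene with 1 kb of effective length was worth 0.0645 to 0.100 FPKM in V-Mt VC, so the 29 silent members below 0.2 FPKM rested on a few fragments per kb at most, and 9 were listed at 0 in all 3 libraries. The median mean was 6.09 FPKM in the members above the line and 0.297 FPKM in those below. In nuclei pooled for RNA, fewer nuclei with a transcript and less transcript per nucleus cannot be told apart.

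**Figure D2:**
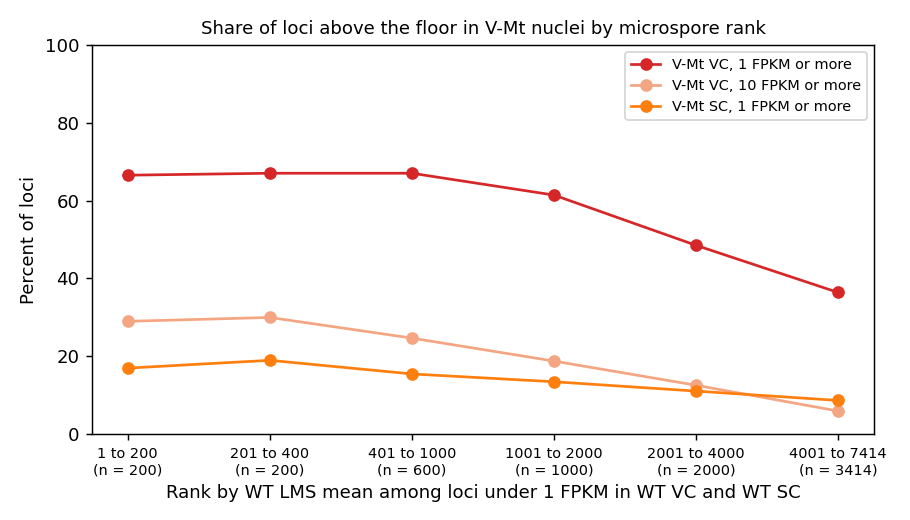
Percent of loci at or above a floor in V-Mt VC or V-Mt SC, for loci under 1 FPKM in WT VC and WT SC in bins of rank by WT LMS mean. The members are the leftmost bin, and their 66.5% at 1 FPKM or more in V-Mt VC is matched by the next bins with 67%.

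Within the 200 members, a range cut off by the choice on WT LMS, Spearman's rho between the WT LMS and V-Mt VC means was −0.12, given as a description across genes of the same libraries. Between WT LMS and V-Mt LMS it was 0.80. Members below the line had the higher microspore level, with a WT LMS median of 240 FPKM against 182 FPKM above it.

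**Figure D3:**
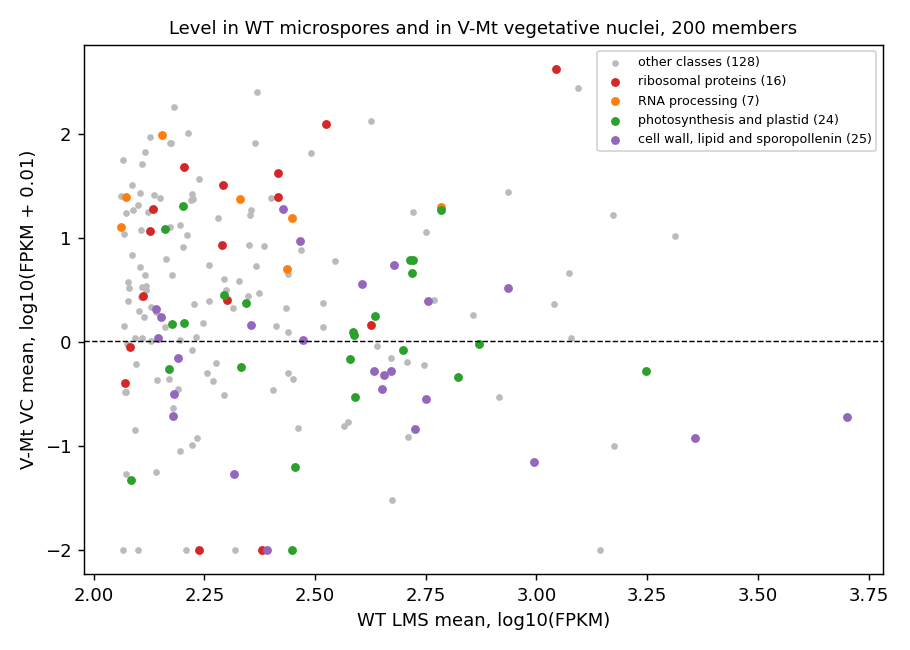
Each point is a member, with its WT LMS mean on a log10(FPKM) axis and its V-Mt VC mean on a log10(FPKM + 0.01) axis. Colours mark 4 annotated function classes, and the dashed line is 1 FPKM. All 7 RNA processing members lie above the line and AT1G66850, at the far right, lies below it.

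The highest member in V-Mt VC was AT2G37600, a ribosomal protein of the L36e family, whose promoter opens the sequences above. It read 368.82, 436.12 and 454.46 FPKM in V-Mt VC, 7.24, 2.08 and 3.35 FPKM in V-Mt SC, and 0 to 0.30 FPKM in WT VC. All V-Mt VC libraries were above all V-Mt SC libraries. AT5G08180, annotated to the L7Ae/L30e/S12e/Gadd45 family, followed among this class with 152.33, 127.92 and 86.88 FPKM in V-Mt VC and 0 to 0.68 FPKM in V-Mt SC. Of the 16 members placed by annotation words in the ribosomal protein class, 12 were at 1 FPKM or more in V-Mt VC and 8 at 10 FPKM or more. The 4 others, AT2G07734, PSRP5, AT5G18790 and AT5G09770, had means of 0, 0, 0.870 and 0.403 FPKM. Single genes named for such a small count were picked after their values were seen. The class was not split into cytosolic and organelle ribosomal proteins, and AT2G07734 lies in the copy of mitochondrial DNA described below. Of the 52 ribosomal protein loci that met the ceiling but were no members, 75.0% were at 1 FPKM or more.

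All 7 members placed by annotation words in the RNA processing class were above the line, against 61.2% of 80 other loci of that class. Of the 7, 6 were at 10 FPKM or more. AT3G07590, of the family of core proteins of the splicing ribonucleoproteins, read 87.48, 106.81 and 94.89 FPKM in V-Mt VC. AT4G25740, the S10 domain protein, read 23.72, 22.36 and 27.08 FPKM. AT5G27120, similar to NOP56, which acts in the modification of ribosomal RNA, read 12.33, 11.84 and 21.86 FPKM. NOP10, a protein of the ribonucleoproteins that convert uridine to pseudouridine in RNA, was lowest in the class with 4.61, 3.99 and 6.51 FPKM. Each of these 4 was above all of its V-Mt SC libraries, in which the class reached at most 20.76 FPKM, in replicate 3 for AT3G07590.

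**Figure D4:**
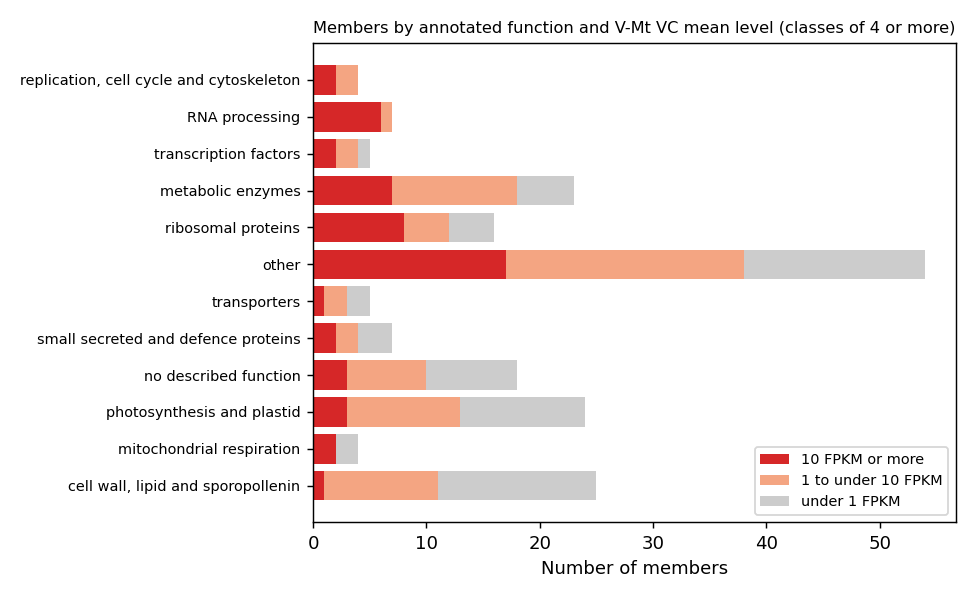
Number of members per annotated function, split by V-Mt VC mean level, for the 12 classes with 4 or more members. All members of the RNA processing class and of the class of replication, cell cycle and cytoskeleton were above 1 FPKM, and 14 of 25 members of the cell wall, lipid and sporopollenin class were below it.

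Among the 4 members placed by annotation words in the mitochondrial class, 2 were above the line. The share was 42.6% among the 61 other loci of that class under the ceiling. TIM13, a carrier chaperone for import into the inner mitochondrial membrane, read 251.30, 239.23 and 254.12 FPKM in V-Mt VC. TOM6, a subunit of the outer membrane translocase, read 72.65, 73.52 and 99.14 FPKM. The other 2, AT2G07707 and CB5-B, had means of 0 and 0.130 FPKM. Both members of the protein folding and turnover class were above the line, against 55.2% of 487 other loci of that class under the ceiling. PAE2, an alpha subunit of the 20S proteasome core, read 189.06, 177.14 and 174.90 FPKM. AT4G32420, a cyclophilin-like prolyl isomerase, read 11.58, 14.04 and 14 FPKM. The V-Mt VC libraries of TIM13 and of PAE2 lay close together, and TIM13, TOM6, PAE2 and AT4G32420 had no overlap with V-Mt SC.

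Among stress-responsive genes, KIN2 read 315.83, 269.29 and 239.48 FPKM in V-Mt VC, and its neighbour KIN1 had a mean of 17.6 FPKM. They are close copies on chromosome 5, so the split of reads between them is uncertain. DI21, a drought-induced gene, read 110.16, 115.14 and 174.26 FPKM. Picked after their values were seen, the cold-regulated COR15A and the paired low-temperature genes RCI2A and RCI2B had means of 8.60, 3.46 and 11.4 FPKM. Other stress-related members were below the line, with means of 0.147 FPKM for AT5G22580, annotated as stress responsive, and of 0.583 and 0.410 FPKM for the late embryogenesis abundant genes AT2G03850 and AT2G03740. No list of stress genes was counted.

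The sugar transporter STP2, which moves monosaccharides into the cell, read 101.98, 93.23 and 110.45 FPKM in V-Mt VC, and the aquaporin PIP3 read 4.11, 6.82 and 6.91 FPKM. PUM7, an RNA-binding Pumilio protein, read 103.35, 93.17 and 78.82 FPKM, and the β-galactosidase BGAL15 read 80.80, 82.54 and 78.70 FPKM. Both stood at 0 to 0.90 FPKM in V-Mt SC. In the transcription factor class, GTE6, a bromodomain protein, read 43.87, 50.18 and 60.42 FPKM and STO, a B-box protein of light signalling, 36.95, 35.53 and 23.36 FPKM. NAC025 was the 1 silent member of the 5 in this class, at 0.36, 0.42 and 0.23 FPKM. Among the 553 other loci of the class under the ceiling, 46.1% were at 1 FPKM or more. Among the 2 chromatin members, AT5G42060, related to the chromatin protein DEK, read 28.20, 24.16 and 28.34 FPKM. The other, the histone deacetylase HDA3, read 3.98, 3.47 and 4.58 FPKM. Among the 21 other chromatin loci under the ceiling, 47.6% were at 1 FPKM or more.

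All 4 members of the class of replication, cell cycle and cytoskeleton were above the line, led by the actin-severing protein ADF1 at 28.33, 31.74 and 16.68 FPKM and by actin 7, ACT7, at 16.04, 15.02 and 15.10 FPKM. Of the 85 other loci of that class under the ceiling, 51.8% were above it. Of 23 metabolic enzymes 18 were above it, against 49.4% of 1097 other loci of that class under the ceiling. AT3G28540, an ATPase-like protein, read 25.74, 21.93 and 35.29 FPKM, and the mitochondrial malate dehydrogenase gene mMDH1 27.86, 23.31 and 23.53 FPKM. Of 18 members with no described function 10 were above it, against 43.5% of 718 other loci. AT1G22010 was highest at 23.34, 21.71 and 27.46 FPKM, followed by AT1G23560, which is the neighbour of the DUF220 gene named above, at 16.78, 15.16 and 17.11 FPKM. These values were all far above the same members' V-Mt SC values, which were at most 2.91 FPKM.

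**Figure D5:**
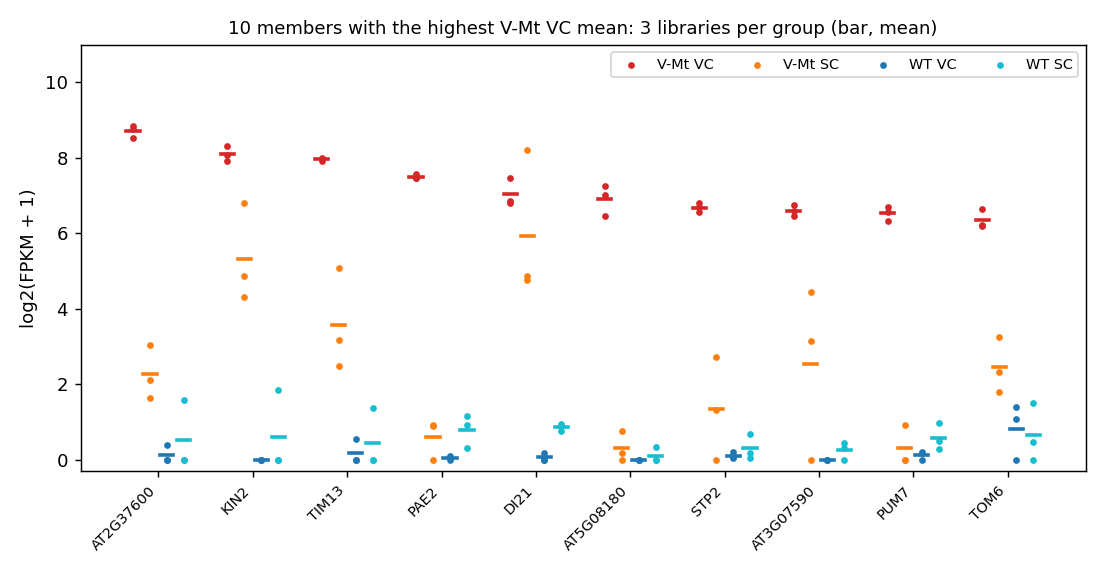
The 10 members with the highest V-Mt VC mean, with 3 libraries per group on a log2(FPKM + 1) axis. Points are libraries and bars are means. In DI21 the highest V-Mt SC library is above all V-Mt VC libraries, and in the other 9 the V-Mt VC libraries lie above all others.

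The photosynthesis and plastid class was divided. Of its 24 members 13 were above 1 FPKM in V-Mt VC, 3 of them at 10 FPKM or more, against 56.8% of 74 other loci of the class under the ceiling. RCA, which activates the carbon-fixing enzyme Rubisco, was highest at 21.26, 19.79 and 18.84 FPKM. AT4G01150, a CURVATURE THYLAKOID 1A-like protein, read 20.58, 17.25 and 17.23 FPKM. The third was PSI-P, at 14.76, 8.54 and 13.40 FPKM. The antenna genes with the highest microspore level were low: LHB1B2 read 0.97, 0.35 and 0.24 FPKM and CAB3 1, 0.36 and 0 FPKM. PSAG, a subunit of photosystem I, read 1.81, 0.89 and 0.12 FPKM. LHCB2.1 and its close copy LHCB2.2 had means of 2.34 and 0.563 FPKM, and reads of such copies may be split unevenly. Of the 16 listed photosynthesis genes 4 were members. The list summed to 19686 to 20757 FPKM in WT LMS and 10840 to 16759 FPKM in V-Mt LMS. In vegetative nuclei it summed to 141 to 166 FPKM in V-Mt VC and 18.8 to 24 FPKM in WT VC. In sperm nuclei it was higher, at 1857 to 2215 FPKM in V-Mt SC and 828 to 1208 FPKM in WT SC. Most of that was RBCS3B, which is no member, with means of 1978.6 FPKM in V-Mt SC and 901.5 FPKM in WT SC. Its mean was 27.3 FPKM in V-Mt VC.

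Genes of the cell wall, lipids and the pollen surface had 14 silent members of 25, and 1 of the 25 reached 10 FPKM in V-Mt VC. Among the 399 other loci of the class under the ceiling, 36.1% were at 1 FPKM or more. AT1G66850 read 0, 0 and 0.54 FPKM in V-Mt VC and LTP12 read 0, 0.33 and 0 FPKM. A7, a lipid-transfer-like gene known from the tapetum, read 0, 0.18 and 0 FPKM after 1122.49, 966.08 and 873.50 FPKM in WT LMS. LTP3 read 0.67, 0 and 0.14 FPKM, and its tandem neighbour LTP4 had a mean of 0.470 FPKM. The exception at 10 FPKM was AT1G36150, also of the lipid-transfer family, with 12.32, 21.14 and 23.61 FPKM, followed by ACP2, an acyl carrier protein of fatty acid synthesis, with 8.66, 7.10 and 12.03 FPKM. LTP6 read 4.42, 3.91 and 1.43 FPKM. Lipid-transfer proteins were thus found on both sides of the line.

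The other silent members with high microspore levels were AT1G68875, at 0, 0 and 0.27 FPKM in V-Mt VC, the metallothionein MT3, at 0, 0.53 and 0.32 FPKM, and AT2G07708, at 0 in all 3 libraries. AT2G07708 is 1 of 4 members numbered AT2G07707 to AT2G07734, all silent in V-Mt VC, in a stretch of chromosome 2 known as a copy of mitochondrial DNA. Reads of these genes cannot be told apart from those of the mitochondrial copies. Single-exon genes made up 40.3% of the 67 silent members, 15% of the 133 others and 16.1% of all loci. They were 21.3% of the 7180 annotated other loci under the ceiling and 23.5% of all members. The annotated transcripts of members were short, with a median of 1109 bases against 1709 bases over all loci.

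Listed tapetum and sporopollenin genes were uneven in the microspore libraries. In WT LMS, ATA20, GRP17 and A7 had means of 1337, 1093 and 987 FPKM. The sporopollenin genes ACOS5, MS2, ABCG26, CYP703A2, LAP5, CYP704B1, TKPR2, LAP6 and TKPR1 were lower, from 4.11 FPKM in ACOS5 to 69.9 FPKM in TKPR1. The list of 20, 17 of them in the microspore table, summed to 4084 to 4444 FPKM in WT LMS and 2714 to 3732 FPKM in V-Mt LMS. All 17 had a mean of 1 FPKM or more in both microspore groups. In WT VC the list summed to 19.4 to 29.5 FPKM, with 6 genes listed at 0. In V-Mt VC it summed to 729 to 907 FPKM, and without SWEET8 to 71.96 to 79.95 FPKM. Its 3 members behaved unlike each other: GRP17, a glycine-rich pollen coat protein, read 1.66, 3.04 and 2.20 FPKM, A9 read 2.41, 1.43 and 0.45 FPKM, and A7 is the silent gene above. The part of tapetum RNA in the microspore level that chose the members was not tested. The 4 microspore markers summed to 167 to 237 FPKM in WT LMS, where MYB81 had 93.7 FPKM against 0.00667 FPKM in WT VC, but to 405 to 542 FPKM in WT VC, so as a list they did not set WT microspores apart.

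V-Mt SC held few members. Of the 200, 34 (17%) had a mean of 1 FPKM or more there, against 51.0% of all loci and 10.9% of other loci under the ceiling, and 101 were listed at 0 in all 3 libraries. Only 10 of the 34 reached 1 FPKM in each library, and in 16 a single library did. In 29 of the 34 the member was also above the line in V-Mt VC, and in 22 it was at 10 FPKM or more there. Replicate 3, the V-Mt SC library with the most REF6, held the highest value in 17 of the 34, replicate 1 in 11 and replicate 2 in 6. The 16 members with a single library at 1 FPKM or more were spread evenly, with 5, 6 and 5 in replicates 1, 2 and 3. KIN2 read 18.70, 27.97 and 111.51 FPKM, DI21 28.07, 25.92 and 293.68 FPKM, and AT1G19600, a pfkB-like carbohydrate kinase, 12.85, 44.71 and 172.63 FPKM. The part of vegetative RNA in these values was not tested. Without replicate 3 the count was 35.

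The 5 members above the line in V-Mt SC and silent in V-Mt VC were LHB1B2, AT1G13930, LHCB2.2, AT5G24165 and GASA6. GASA6, a gibberellin-regulated gene, read 0, 0 and 20.95 FPKM in V-Mt SC, and LHB1B2 0, 0 and 13.38 FPKM. AT5G24165 alone was similar over the libraries, at 1.17, 0.90 and 1.31 FPKM. Against WT SC, 7 members were called higher in V-Mt SC and 0 lower by limma. Over all loci, 0.762% were called higher and 3.58% lower. The 7 were KIN2, DI21, AT1G19600, TIM13, MLP28, ATPD and AT5G42060. At an unadjusted p under 0.05 there were 16 members higher and 4 lower, where 4433 of all 19024 loci passed either way. Since low WT SC values chose the members, nothing is read from these counts.

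The choice used no V-Mt value, so V-Mt VC could be compared with V-Mt SC. The WT pollen libraries that chose the members did enter the fit's estimate of the spread. A fit on the V-Mt libraries alone called 120 members higher and 0 lower, against 9626 and 2366 of all 19024 loci. All 200 members passed the filter on low values, through their microspore levels. By limma over 19024 loci, 135 members (67.5%) were higher in V-Mt VC and 0 lower at an adjusted p under 0.05. The background was 50.5% higher and 12.3% lower over all loci, and 65.9% higher over the other loci under the ceiling. The members' share was thus near that of loci of the same WT state. At an unadjusted p under 0.05 there were 141 members higher and 0 lower, where 12572 of all loci passed either way. The median difference was 1.54 on the log2(FPKM + 1) scale for members and 1.05 for all loci. It depended on scaling: after quantile normalization, which moved the median of all loci to −0.05 and that of members to 0.18, 69 members were higher and 10 lower, against 25.8% and 21.1% of all loci. All V-Mt VC libraries lay above all V-Mt SC libraries in 130 members (65.0%), as in 54.1% of all loci and 60.8% of the other loci under the ceiling. Of the 135, 117 were above the line in V-Mt VC and 18 below it, the lowest with a mean of 0.220 FPKM, while 16 members above the line were not called.

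The 5 largest called differences were all in favour of V-Mt VC. PAE2 was higher by 6.90 ± 0.38 on the log2(FPKM + 1) scale (SE, limma adjusted p = 1.31e-07). AT5G08180 was higher by 6.60 ± 0.36 (adjusted p = 1.19e-07), AT2G37600 by 6.45 ± 0.50 (adjusted p = 1.11e-06), BGAL15 by 6.35 ± 0.33 (adjusted p = 1.07e-07) and PUM7 by 6.22 ± 0.38 (adjusted p = 2.18e-07). In each of the 5, all 3 V-Mt VC libraries were above all V-Mt SC libraries. These differences are limited by the pseudocount of 1, since V-Mt SC was at or near 0 in 4 of the 5. STP2 was higher by 5.34 ± 0.58 (adjusted p = 1.35e-05), TIM13 by 4.38 ± 0.62 (adjusted p = 0.000105), AT3G07590 by 4.07 ± 0.86 (adjusted p = 0.00177) and TOM6 by 3.90 ± 0.54 (adjusted p = 9.24e-05). KIN2 was higher by 2.78 ± 0.65 (adjusted p = 0.00329), and by 2.81 with an adjusted p of 0.0504 at a pseudocount of 0.1. DI21 and AT1G19600 did not pass, with adjusted p of 0.225 and 0.595; DI21 passed without V-Mt SC replicate 3, with a difference of 2.23 and an adjusted p of 0.000172. GTE6, also highest in V-Mt SC replicate 3, differed by 3.11 ± 0.95 (adjusted p = 0.0142).

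Against WT VC, limma called 146 members (73.0%) higher and 0 lower in V-Mt VC. Over all loci 54.8% were higher and 10.1% lower, and 68.9% of the other loci under the ceiling were higher. At an unadjusted p under 0.05 there were 151 members higher and 0 lower, where 12936 of all 19024 loci passed either way. Low WT VC values chose the members, so these counts support nothing. The median of all loci was itself shifted by 1.25 on the log2(FPKM + 1) scale. After quantile normalization that shift was −0.07, and 76 members were higher and 7 lower, against 4723 and 4490 of all 19024 loci. Of the 9 pairs of adjacent members, both were above 1 FPKM in V-Mt VC in 5, both below in 2 and divided in 2. The run of glycine-rich pollen coat genes GRP14, GRP18 and GRP17 on chromosome 5 had means of 1.40, 5.48 and 2.3 FPKM. Another annotated gene overlapped 56 members, and 37 of these and 96 of the 144 others were above the line; whether counting used the strand is not given in the sources used here, so reads of overlapping genes, AT5G08180, AT3G07590, TOM6, RCA and STO among them, cannot be assigned with certainty.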

How the data were processed

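Messenger RNA of sorted pollen nuclei and total RNA of late microspores were amplified with SMART-Seq HT, per the labels' protocols. The authors deposited FPKM values per gene, with TAIR10, RSEM 1.3.1, Bowtie2 2.3.5, HISAT2 2.1.0 and StringTie 1.3.5 named for pollen, and RSEM 1.3.1, HISAT2 2.1.0 and Bowtie2 (version not given in the sources used here) for microspores, per the submitters' processing notes. Neither settings nor strand use is given in the sources used here. Isoform tables were not used. The pollen and microspore gene tables (28424 and 24292 entries, with 2 stray lines of the latter left out) were normalized separately, so each test stayed within 1 table. Loci AT1G to AT5G in both tables with at least 1 FPKM in 3 of the 18 libraries were tested with limma 3.58.1 (R 4.3.3, trend, log2(FPKM + 1), Benjamini-Hochberg over 19024 loci, threshold 0.05), using all 12 pollen libraries or all 6 microspore libraries. Depths are estimates from low values, with 250-base fragments assumed. FPKM holds no counts, so no interval is given. All 200 members matched the TAIR10.1 annotation of RefSeq, which gave names, functions and sequences, and 117 had a symbol. Function classes came from words in these annotations; their patterns were repaired after member values were seen, and a few plastid genes fall in other classes. The members, lists and tests were chosen with earlier results of these data known. Genes named were the 10 highest in WT LMS, in V-Mt VC and among silent members, the 5 largest called differences, the 2 highest of each class, list members and loci at the thresholds; others were named after their values were seen. Sums of lists of sperm, vegetative, microspore, tapetum and photosynthesis genes were taken per library. Alternatives changed the floor, ceiling, number of members, pseudocount, scaling, filter and libraries.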

Additional observations from a re-analysis of the deposited data

How the results depend on the processing

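The count of 133 members in V-Mt VC at 1 FPKM or more was 107 to 151 with floors of 2 and 0.5 FPKM, 112 when each library had to reach 1 FPKM, 121 with a ceiling of 0.5 FPKM, and 128 to 137 with single replicates left out; among the highest 100 and 400 loci it was 62 and 267. The 34 in V-Mt SC became 53 at a floor of 0.5 FPKM, 10 when each library had to reach 1 FPKM, 16 of 100 and 72 of 400 loci, and 33 to 43 with replicates left out. The 200 in V-Mt LMS became 100 of 100 and 397 of 400 loci, and 198 to 200 with replicates left out. Added after seeing the data, ranking by the WT LMS median gave 132 and 35 members in V-Mt VC and V-Mt SC, and members with no overlapping gene gave 96 and 23 of 144. Between V-Mt VC and V-Mt SC, quantile normalization gave 69 higher and 10 lower members instead of 135 and 0, and leaving out replicates gave 131 to 136 higher and 0 to 1 lower (AT5G24165, without V-Mt VC replicate 1). A fit on the V-Mt libraries alone called 120 higher and 0 lower, where 9626 of all 19024 loci were higher and 2366 lower. A filter on pollen libraries passed 118 members and called 103 higher, where it called 8476 of 15672 loci higher. Members are low in WT pollen by choice and passed this filter mostly through V-Mt VC, so the 103 supports nothing. Against WT VC, quantile normalization gave 76 instead of 146, and leaving out replicates 133 to 148. Over all 19024 loci, quantile normalization called 4723 higher there instead of 10422. The 0 calls in microspores stayed 0 in all 10 alternatives. A replicate block gave 138 higher members between V-Mt VC and V-Mt SC; same-numbered libraries did not deviate together (r of −0.19 to 0.13 in pollen, −0.12 to 0.03 in microspores), and 1 of 12 pollen libraries correlated best with one of its own number. The 11 named members followed were those highest in V-Mt VC or with the largest called differences, so they give no independent support. Alternatives that changed only the filter, the replicate block or the WT libraries could not change their differences. For these 11, 207 of 209 alternative values kept direction and call, and the other 2 (KIN2 and DI21) kept direction. The cause of these moves was not tested. Microspore depth limits low values there: 1 fragment per kb is worth 0.303 to 0.5 FPKM.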
